A study of Mus musculus with 4 samples.

Results

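Of the 25265 genes in the deposited count table, 17 carried a symbol of a small nucleolar RNA (Snora or Snord), a small Cajal body RNA (Scarna) or another short structured RNA. The names searched were Snora, Snord, Scarna and Rnu followed by a digit, and Rn7sk, Rmrp, Rpph1, Terc and Rn7s1. The 17 were 6 box H/ACA RNAs, 7 box C/D RNAs, 2 small Cajal body RNAs, and Rn7sk and Terc. None of the 17 passed the test between genotypes, and 13 of them held 30 or fewer counts over the 4 libraries together. The study compared adult testis (C57BL/6, postnatal day 56), with 2 control libraries and 2 labelled Ythdf2-vKO. The series title describes the mutation of Ythdf2, which encodes a cytoplasmic reader of N6-methyladenosine, as restricted to germ cells. The labels give neither the Cre driver, nor the deleted segment, nor the alleles of the controls, and they do not say whether each library came from its own animal. If the libraries share animals, the p-values measure only technical spread. Total RNA was extracted, depleted of ribosomal RNA and made into directional libraries.

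Small nucleolar RNAs pair with ribosomal RNA precursors in the nucleolus and guide their chemical modification. Box C/D RNAs carry the proteins Fbl, Nop56, Nop58 and Snu13 and guide methylation of the ribose, while box H/ACA RNAs carry Dkc1, Gar1, Nhp2 and Nop10 and guide conversion of uridine to pseudouridine. Small Cajal body RNAs do the same for spliceosomal RNAs. In vertebrates most of these guides are cut from introns of other genes after splicing, and the mature RNAs have no poly(A) tail, so libraries made from total RNA can hold them where poly(A)-selected libraries mostly cannot. Rn7sk and Terc are instead transcribed from their own promoters. Rn7sk is the scaffold that keeps the elongation kinase Cdk9 inactive, and Terc provides the template for telomerase.

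The results turn on 6 of these RNAs, whose sequences are shown as GENCODE M21 gives them for GRCm38, with T for U. The pair Snora73a (chr4:132352775-132352979, minus strand) and Snora73b (chr4:132352322-132352526, minus strand) is shown because its members are near copies with very different counts. The capitals mark the ACA that ends an H/ACA RNA.
Snora73a: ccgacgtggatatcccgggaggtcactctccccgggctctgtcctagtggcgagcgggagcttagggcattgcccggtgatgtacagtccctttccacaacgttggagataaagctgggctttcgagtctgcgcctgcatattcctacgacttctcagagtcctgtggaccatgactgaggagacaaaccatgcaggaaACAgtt
Snora73b: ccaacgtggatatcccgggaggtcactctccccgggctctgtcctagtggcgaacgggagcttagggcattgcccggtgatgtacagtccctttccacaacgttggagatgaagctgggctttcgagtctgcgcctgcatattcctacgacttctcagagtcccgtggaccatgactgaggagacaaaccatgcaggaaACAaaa
Aligned end to end, 198 of 205 positions were identical (96.6%). Reads from one can therefore match the other, and how the authors treated reads with several matches is not given in the sources used here.

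Snord49a (chr11:62603450-62603521, plus strand) and Snord49b (chr11:62603079-62603150, plus strand) are box C/D RNAs in introns of the same gene, shown because their counts did not follow each other. The capitals mark the words TGATGA (box C) and CTGA (box D).
Snord49a: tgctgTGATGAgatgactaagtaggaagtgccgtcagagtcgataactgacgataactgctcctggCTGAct
Snord49b: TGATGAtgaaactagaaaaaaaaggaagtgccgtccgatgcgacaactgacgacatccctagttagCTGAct
These RNAs had 54 identical positions in an alignment of 78 columns (69.2%), and no other annotated gene had 80% identity over 80% of either.

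The start of Rn7sk (chr9:78175303-78175633, minus strand) is shown as the most counted of the 17, with the word GATC in capitals. It occurs 3 times, and GAUC repeats in the first hairpin of this RNA are part of the binding element of the inhibitor Hexim1. Terc (chr3:96414437-96414859, minus strand) is shown as the longest member, with CTAACCCT in capitals, the word that templates telomeric repeats.
Rn7sk: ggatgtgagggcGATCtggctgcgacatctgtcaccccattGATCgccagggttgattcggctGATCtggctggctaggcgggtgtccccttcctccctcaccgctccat
Terc: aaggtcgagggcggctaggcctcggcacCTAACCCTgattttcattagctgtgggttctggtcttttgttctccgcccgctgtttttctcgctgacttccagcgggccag
The stretches are the first 110 nt of each RNA. Among the longest transcripts of all annotated genes that measure 300 to 450 nt, 71.8% held GATC and 0.258% held CTAACCCT on the transcript strand.

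Most members carried the end motifs of their class. CTGA lay in the last 20 nt of 7 of 7 box C/D members, against 97 of 99 annotated box C/D names (98%). TGATGA lay in the first 20 nt of 5 of 7, against 70 of 99 (70.7%), and Snord72 and Snord88c were the members without it. ACA lay in the last 10 nt of 6 of 6 box H/ACA members, against 40 of 42 annotated (95.2%). Terc also had it, with 3 nt after it, as did Scarna13. These words were searched on the transcript strand only, and no match says only that the letters are not in that window.

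GENCODE M21 lists 178 genes under the names searched, so the table held 9.55% of them and the other 161 are not analysed here. The table holds no gene under 10 counts over the 4 libraries. By class, it held 6 of 42 annotated box H/ACA names (14.3%), 7 of 99 box C/D names (7.07%) and 2 of 9 small Cajal body names (22.2%). None of 22 annotated Rnu names, which cover spliceosomal and other nuclear RNAs, was among them, nor were Rmrp, Rpph1 or Rn7s1. The share in the table varied with length over all names, but not in every class. Of 23 annotated RNAs of 200 nt or longer 6 were in the table (26.1%), against 11 of 155 shorter ones (7.1%). The median length was 130 nt in the table and 94 nt outside it. Within box C/D names these medians were 79 and 85 nt, and within box H/ACA names 132 and 133 nt. Within small Cajal body names they were 344.5 and 139 nt. Among RNAs of 200 nt or longer, the table held 2 of 2 box H/ACA and 2 of 4 small Cajal body names. It held 0 of 1 box C/D and 0 of 10 Rnu names of that length, and 2 of 6 genes named Rn7sk, Rmrp, Rpph1, Terc or Rn7s1. The relation to length was not tested. Of annotated protein-coding genes, 78.6% were present. Size selection in the libraries is not given in the sources used here, and its part was not tested either.

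**Figure D1:**
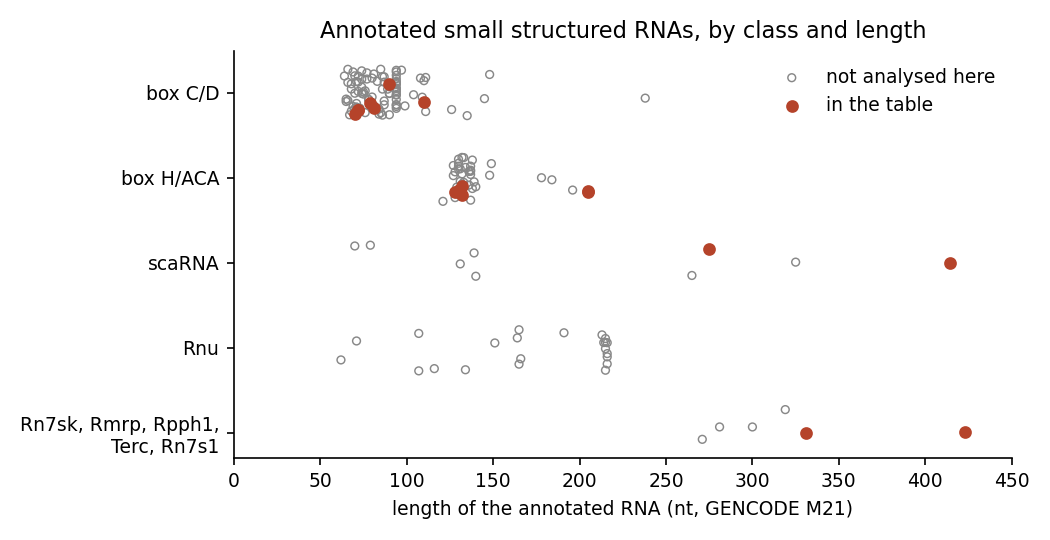
Length in nt (x axis) of the 178 annotated RNAs under the names searched, by class (y axis, points spread vertically for legibility). Filled points are the 17 in the table, which hold 6 of the 23 RNAs of 200 nt or longer and none of the Rnu names, and open points are the 161 not analysed here.

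The libraries held between 24862518 and 29561182 counts, and the 17 RNAs took 0.000531% to 0.00067% of them. Levels are given as CPM, the count scaled by the library's total and its TMM factor, and, to compare genes, as RPKM, which is CPM per kilobase of annotated length. With size selection not given, RPKM values of short RNAs of different length may not be comparable levels. The targeted gene Ythdf2 had control counts of 1193 and 1604, against vKO counts of 1774 and 1807 (log2 fold change 0.35, SE 0.13, Benjamini-Hochberg adjusted p 0.238 by the quasi-likelihood test of edgeR). Its counts were thus not lower in vKO. A count over the whole gene in whole testis cannot show whether a segment of it was deleted in germ cells. Below, vKO stands for a label, with every direction given as vKO over control. Of 41 marker genes of testis cell types all were in the table and 40 were tested. Wt1, in the Sertoli list, was called higher and no other was called. An unadjusted p under 0.05 by edgeR was found for 16 of the 40, against 14.1% of all genes tested. The 16 included 5 of 5 Sertoli genes. The 5 Sertoli genes summed to control levels of 299 and 285 CPM, against vKO levels of 451 and 414 CPM. Of the other lists, 6 of 6 spermatogonial, 5 of 5 Leydig and 4 of 4 tested erythrocyte genes had log2 fold changes above 0. Elongating spermatid genes had 0 of 5 above 0, and summed to 6274 and 5201 CPM for control, against 4732 and 4851 CPM for vKO. Values in the remaining lists lay on both sides of 0. The part of these differences in the members' values was not tested. The libraries also differed in their relation to GC content, with Spearman correlations across genes from -0.343 in control replicate 2 to 0.229 in vKO replicate 1. The members' GC content ran from 29.6% in Snord72 to 67.1% in Terc. In whole testis, fewer cells of a type and less RNA per cell cannot be told apart.

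Rn7sk (ENSMUSG00000065037) was the most counted of the 17, with control counts of 47 and 56, against vKO counts of 45 and 39. These were control levels of 2.01 and 1.87 CPM, against vKO levels of 1.68 and 1.44 CPM, so that the groups did not overlap and vKO was lower. The means were 1.94 ± 0.101 and 1.56 ± 0.166 CPM (SD, n = 2 each). In log2 terms this difference was -0.31 (SE 0.34), at an adjusted p of 0.748 by edgeR's quasi-likelihood test, so the difference did not pass. With an offset for GC content it was -0.49, also without passing. By mean CPM the RNA stood at rank 16070 of the 25265 genes. Its closest annotated relative, Gm23037, had 89.2% identity over its length.

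Snora73b (ENSMUSG00000065353), a box H/ACA RNA of the U17 type that acts in cleavage of the ribosomal RNA precursor, was the second most counted. It had control counts of 31 and 46, against vKO counts of 51 and 40, or 1.33 and 1.53 against 1.90 and 1.48 CPM. The groups overlapped, since vKO replicate 2 lay below control replicate 2. The log2 fold change was 0.24 (SE 0.36, adjusted p 0.830 by edgeR), and 0.11 with the GC offset. Per length it was the highest of the 17, at a mean of 7.61 RPKM against 5.29 for Rn7sk. Its neighbour Snora73a, 249 nt away, had control counts of 6 and 8, against vKO counts of 8 and 8, or 1.36 RPKM. The pair thus differed in counts although nearly identical in sequence, and whether the RNAs themselves differ in level was not tested. Snora73a shares 159 nt with an exon of Snhg3 on its own strand, while Snora73b lies wholly in an intron. On the opposite strand both overlap exons of Gm17300 (145 and 172 counts in control, 177 and 136 in vKO), and whether the counting used strand is not given in the sources used here.

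The other 15 RNAs held 316 of the 671 counts, and Rn7sk and Snora73b were the only members that passed edgeR's filter on low counts. Of the 2, 0 were called at an adjusted p under 0.05 and 0 had an unadjusted p under 0.05, against 0.393% called and 14.1% at the unadjusted threshold among the 21132 genes tested. A fit with no filter was therefore used for the other 15. There 0 of 17 members were called, against 0.483% of 25265 genes, and 0 had an unadjusted p under 0.05, against 12.8%. Among all genes of the table with 30 or fewer counts the latter share was 4.86%. A DESeq2 Wald test gave 0 of 17 members at an unadjusted p under 0.05, against 8.76% of all genes. Of the 2 members to which it gave an adjusted p it called 0, against 1.32% of all genes with one. Of the 17, 2 had an adjusted p in the authors' deposited table, 0.886 for Rn7sk and 0.923 for Snora73b. In the fit with no filter the median SE of the log2 fold change was 0.957 over the 17 and 0.246 over all genes.

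**Figure D2:**
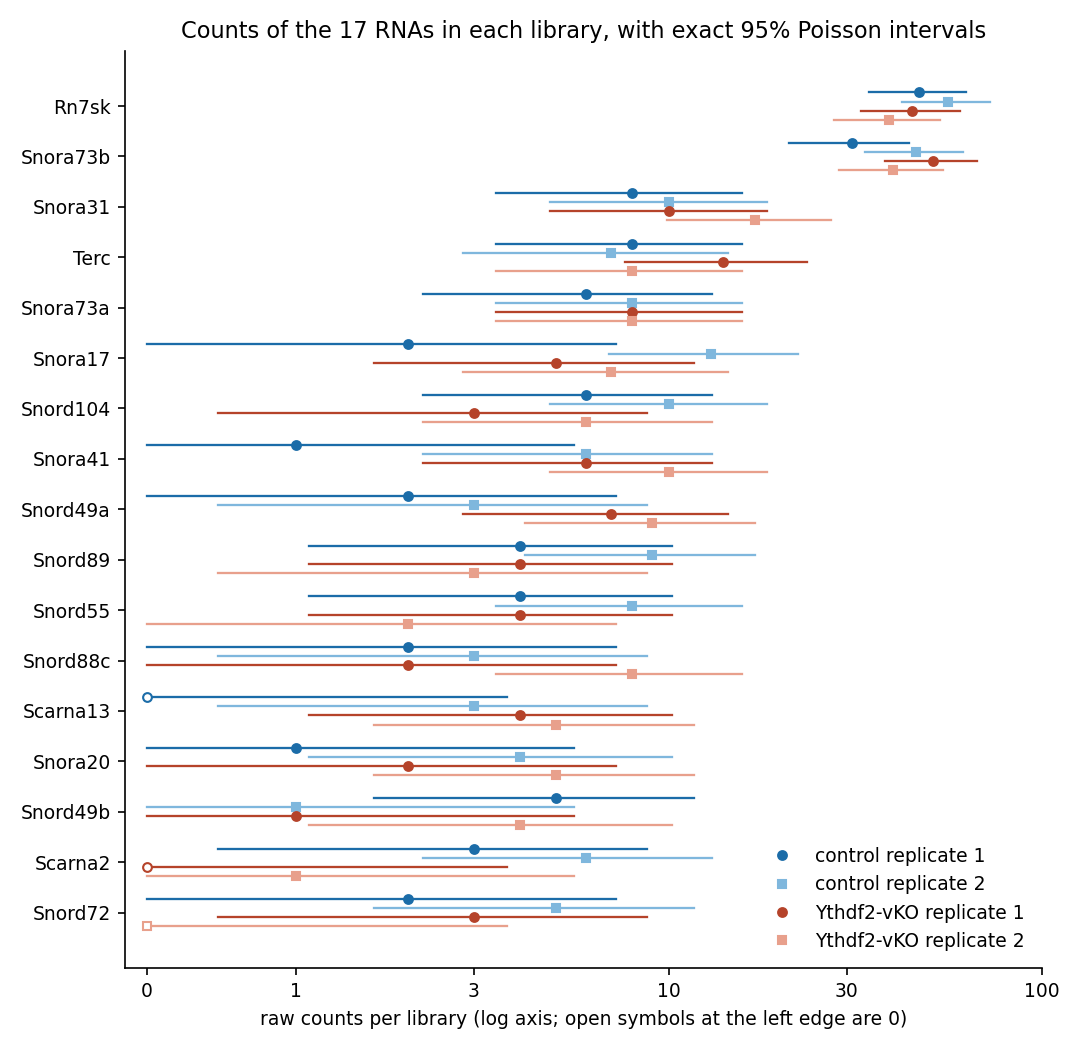
Raw counts (x axis, log scale, with 0 drawn at the left edge as open symbols) of each of the 17 RNAs (y axis) in the 4 libraries, with exact 95% Poisson intervals, which are cut at the left edge. Rn7sk and Snora73b stand above 30 counts in every library, and the intervals of the libraries overlap widely for most of the others.

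The other box H/ACA RNAs were Snora31, Snora17, Snora41 and Snora20. Snora31 (chromosome 14, in an intron of Tpt1) had control counts of 8 and 10, against vKO counts of 10 and 17. Its groups did not overlap in CPM, and vKO replicate 2 stood apart from the other 3 libraries. Control replicate 2 and vKO replicate 1 had the same count of 10, so that only the scaling for depth kept the groups apart. Snora41 (chromosome 1, in an intron of Eef1b2) had control counts of 1 and 6, against vKO counts of 6 and 10. The ratio of depth-scaled summed counts was 2.27, with an exact 95% interval of 0.883 to 6.52 that covers counting error only. Its log2 fold change of 1.20 was 0.56 without control replicate 1 and 2.67 without control replicate 2. Snora17 (chromosome 2) had control counts of 2 and 13, against vKO counts of 5 and 7, so that both vKO libraries lay between the control libraries. Without control replicate 2 its log2 fold change went from -0.26 to 1.34. In M21, 271 other annotated genes are at least 80% identical to it over at least 80% of its length. Snora20 (chromosome 17, in an intron of Tcp1) had control counts of 1 and 4, against vKO counts of 2 and 5, and its groups overlapped.

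The box C/D RNAs reached at most 10 counts in a library. Snord49a had control counts of 2 and 3, against vKO counts of 7 and 9, which is 0.0855 and 0.1 against 0.261 and 0.333 CPM. The groups did not overlap, and the ratio of summed counts was 3.18 (exact 95% interval 1.11 to 11.1). In edgeR's fit with no filter the log2 fold change was 1.62 (SE 0.96, unadjusted p 0.11, adjusted p 0.525), which did not pass. Snord49b, which lies 300 nt upstream in the same gene, had control counts of 5 and 1, against vKO counts of 1 and 4. There, the groups overlapped and the spread within each was wider than the difference between them. Both guide methylation of the large ribosomal subunit RNA.

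In 3 box C/D RNAs both vKO libraries lay below both control libraries in CPM, as they did in 21.5% of all genes. Snord104 (chromosome 11) had control counts of 6 and 10, against vKO counts of 3 and 6, a ratio of 0.558 (0.217 to 1.34). Snord89 (chromosome 1) had 4 and 9 against 4 and 3, a ratio of 0.535 (0.181 to 1.44). Snord55 (chromosome 4) had 4 and 8 against 4 and 2, a ratio of 0.496 (0.153 to 1.43). In Snord89 and Snord55 control replicate 1 and vKO replicate 1 had the same count of 4. In Snord104 control replicate 1 and vKO replicate 2 had the same count of 6. Only the scaling for depth set these libraries apart. Each interval held 1, and the adjusted p values in edgeR's fit with no filter were 0.773, 0.779 and 0.763. Groups overlapped in the other members of the class. Snord72 (chromosome 15, in an intron of Rpl37) had control counts of 2 and 5, against vKO counts of 3 and 0. In Snord88c (chromosome 7) the control counts were 2 and 3 and the vKO counts 2 and 8.

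The small Cajal body RNAs were among the least counted, and Scarna2 had the lowest ratio of the 17. Scarna2 (chromosome 3, 108554338 to 108554751, minus strand, 414 nt) guides methylation of a spliceosomal RNA. It had control counts of 3 and 6, against vKO counts of 0 and 1. Its groups did not overlap, and the ratio was 0.11, with an exact 95% interval of 0.00252 to 0.796. Its unadjusted p of 0.0657 was the smallest of the 17, and the adjusted p was 0.436 in edgeR's fit with no filter. Scarna13 (chromosome 12, 105031075 to 105031349, minus strand, 275 nt) had control counts of 0 and 3, against vKO counts of 4 and 5. The ratio was 2.98, with an interval of 0.743 to 17.1, and the adjusted p was 0.678 in the same fit of edgeR. Its log2 fold change was 1.54, and 0.71 without control replicate 1. Without control replicate 2 the control side of Scarna13 is at 0 counts, as is the vKO side of Scarna2 without vKO replicate 2, and the fitted values there (5.15 and -5.19) depend on the prior count. Scarna13 lies in an intron of Snhg10 and shares 65 nt with Mir3069. Scarna2 and Scarna13 thus lay on opposite sides of 1, and neither passed.

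Terc (ENSMUSG00000064796) had control counts of 8 and 7, against vKO counts of 14 and 8, or 0.342, 0.233, 0.523 and 0.296 CPM. The groups overlapped, with vKO replicate 1 above the other 3 libraries. In edgeR's fit with no filter the log2 fold change was 0.52 (SE 0.73), at an adjusted p of 0.837. Per length it was near the bottom of the 17, at 0.824 RPKM, with only Scarna13 (0.395) and Scarna2 (0.221) lower. Tert, Terf1, Terf2 and Pot1a, which encode the telomerase catalytic subunit and telomere proteins, were all tested, and 0 of 4 were called.

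**Figure D3:**
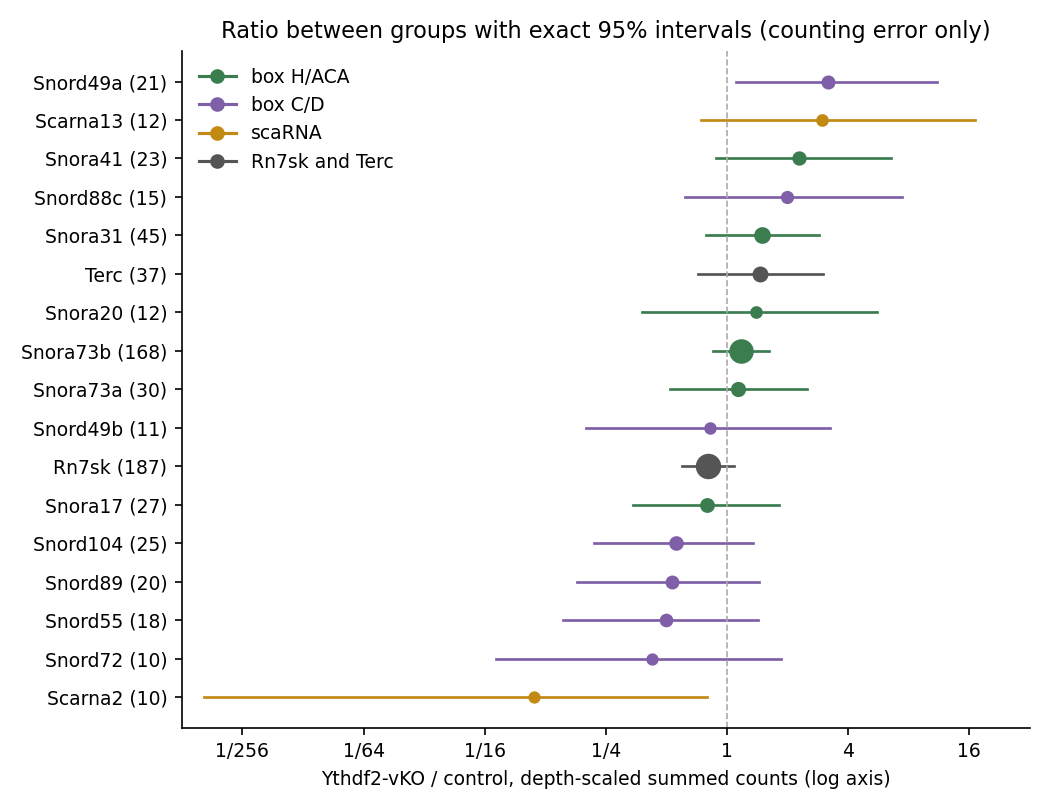
Ratio of depth-scaled summed counts, Ythdf2-vKO over control (x axis, log scale), for each RNA (y axis, total counts in parentheses), with exact 95% intervals for counting error only. Points are larger for RNAs with more counts, but not in proportion. The intervals of 15 of the 17 hold 1, and those of Snord49a and Scarna2 do not.

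Across the members, values lay on both sides. In the fit with no filter 9 log2 fold changes were above 0 and 8 below, with a median of 0.18 against 0.0044 for all genes. Groups did not overlap in 10 of 17 members (58.8%), 5 higher and 5 lower in vKO, against 43.4% of all genes (21.9% higher and 21.5% lower). Among members with 30 or fewer counts it was 8 of 13, against 34.1% of all genes that low. In Snora31, Snora41, Snora73a, Snord55, Snord89 and Snord104 a control and a vKO library had equal raw counts. Their groups were thus kept apart only by the scaling for depth. How many of all genes had such ties was not counted. Exact counting intervals were drawn for 17 ratios with no adjustment for their number, and 2 left out 1. No call rested on them.

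Summed over the 17, the RNAs had control levels of 5.64 and 6.60 CPM, against vKO levels of 6.31 and 6.37 CPM. Both vKO libraries lay between the control libraries. The ratio of summed counts was 1.03 (exact 95% interval 0.879 to 1.2). Box H/ACA RNAs summed to control levels of 2.09 and 2.90 CPM, against vKO levels of 3.06 and 3.22 CPM, a ratio of 1.23 (0.978 to 1.56). Control replicate 1 was the low library there, and without it the ratio was 1.08. Without control replicate 2 it was 1.5 (1.09 to 2.11). Box C/D RNAs summed to control levels of 1.07 and 1.3 CPM, against vKO levels of 0.896 and 1.19 CPM, a ratio of 0.869 (0.596 to 1.26). These sums are given as a description, with no test, and Snora73b held 168 of the 305 box H/ACA counts.

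**Figure D4:**
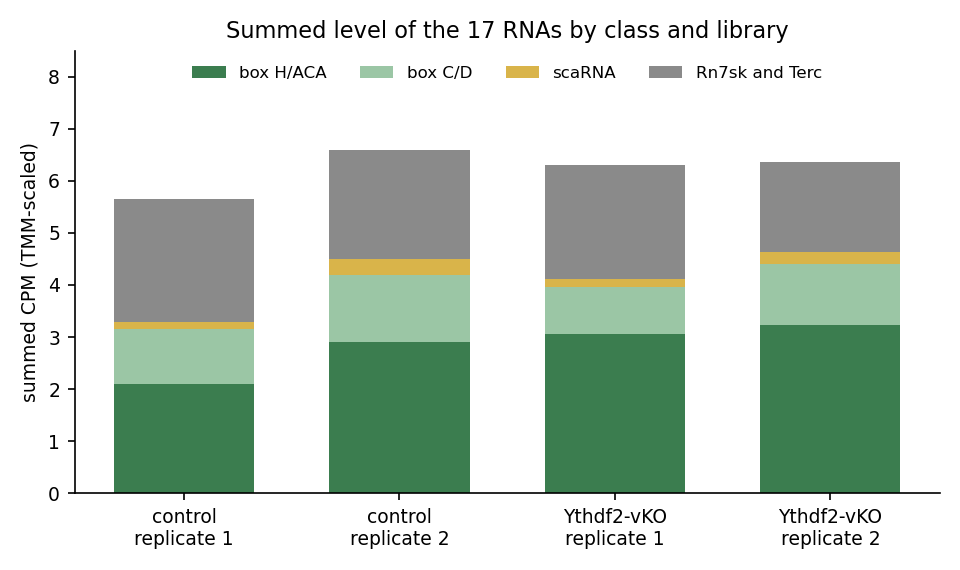
Summed CPM (y axis) of the 17 RNAs in each library (x axis), stacked by class. The total runs from 5.64 to 6.60 CPM in control and lies at 6.31 and 6.37 CPM in vKO.

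Each member was set beside the gene that contains it on the same strand. Of the 17, 12 lay inside such a gene, of which 11 host genes are reported here, and 5 (Rn7sk, Terc, Scarna2, Snora17 and Snord104) lay outside any. All 11 hosts were tested and 0 were called by edgeR, against 0.393% of all genes tested, with 3 at an unadjusted p under 0.05, against 14.1%. These were Rcc1, Tcp1 and 2410002F23Rik. Rcc1, the exchange factor of Ran and host of Snora73a and Snora73b, had control levels of 261 and 212 CPM, against vKO levels of 190 and 197 CPM (log2 fold change -0.29, SE 0.13, adjusted p 0.345). Snhg3, the noncoding host of the same pair, had control levels of 10.6 and 10.5 CPM, against vKO levels of 9.37 and 9.11 CPM (-0.19, SE 0.18, adjusted p 0.689). Without control replicate 2 the log2 fold change was -0.43 for Rcc1 and 0.56 for 2410002F23Rik. Without control replicate 1 these were -0.13 and 0.25. Values of Rcc1 and Snhg3 were lower in vKO without passing, and those of the snoRNAs were not.

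Tcp1, a subunit of the cytosolic chaperonin and host of Snora20, had control levels of 1673 and 1695 CPM, against vKO levels of 1435 and 1386 CPM (log2 fold change -0.26, SE 0.11, adjusted p 0.326). It was the most counted host, with 165823 counts against 12 of Snora20. Member counts per 1000 host counts ran from 0.0724 for that pair to 476 for Snord89 in Gm15832, a noncoding gene with 42 counts. The most counted host thus held one of the least counted guides. 2410002F23Rik, which holds Snord88c, had control levels of 28.8 and 35.6 CPM, against vKO levels of 42.0 and 43.0 CPM (0.40, SE 0.14, adjusted p 0.243). 2410006H16Rik, which holds Snord49a and Snord49b, had control levels of 9.79 and 9.80 CPM, against vKO levels of 9 and 11.3 CPM (0.05, SE 0.19, adjusted p 0.947). Its level was within the spread of its replicates. The remaining hosts were Eef1b2 (-0.08, SE 0.13), Tpt1 (-0.07, SE 0.11), Rpl37 (-0.19, SE 0.13), Gm28496 (-0.21, SE 0.23), Snhg10 (-0.27, SE 0.37) and Gm15832 (1.03, SE 0.79), as log2 fold changes. Gm15832 had 1 and 13 counts for control, against 12 and 16 for vKO, and was at 0.26 without control replicate 1 and 3.46 without control replicate 2. Of 14 pairs of member and host, in which some members and hosts occur more than once, 3 had the same sign. Most of these member values were smaller than their SE, so their signs are uncertain. A relation between members and hosts was not tested.

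**Figure D5:**
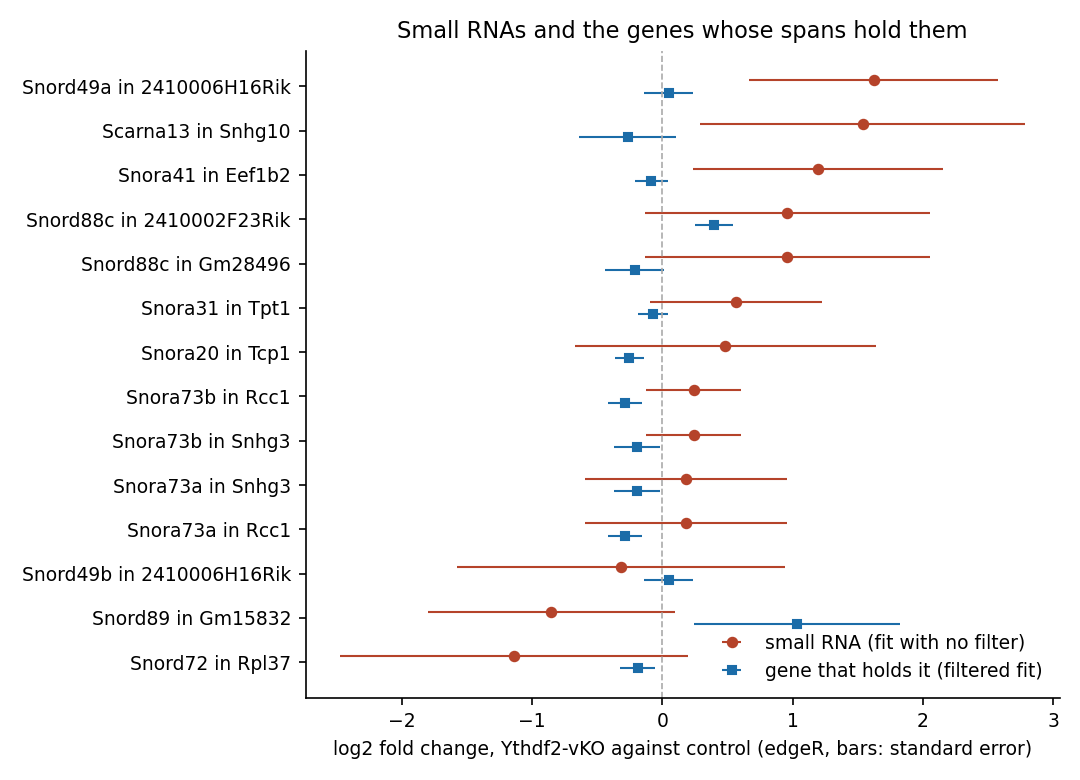
Log2 fold change, Ythdf2-vKO against control (x axis, bars are standard errors), of each small RNA (circles, fit with no filter) and of the gene whose span holds it (squares, filtered fit), by pair (y axis). Hosts lie between -0.29 and 0.40 except Gm15832 at 1.03, which has 1 count in control replicate 1, and in each of the 14 pairs the bar of the host is shorter than that of its small RNA.

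Transcripts of the 8 core proteins that these RNAs assemble with had more counts than the small RNAs. The values below are of RNA, as no protein was measured. Of the box C/D core proteins 0 of 4 were called. Fbl, the methyltransferase, had a log2 fold change of 0.17 (SE 0.14), Nop56 of 0.02 (SE 0.21), Snu13 of 0.13 (SE 0.17) and Nop58 of -0.32 (SE 0.12). Nop58 had control counts of 2037 and 2788, against vKO counts of 1899 and 1970, and its adjusted p was 0.261. Of the box H/ACA core proteins 0 of 4 were called, with log2 fold changes of 0.23 (SE 0.28) for the pseudouridine synthase Dkc1, 0.04 (SE 0.17) for Gar1, 0.18 (SE 0.16) for Nhp2 and -0.12 (SE 0.14) for Nop10. The log2 fold change of Snu13 was 0.43 without control replicate 2 and -0.11 without control replicate 1. Dkc1 had the fewest counts of the 8, with 66 and 141 for control, against 133 and 106 for vKO.

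In all, 9 lists of partner and host genes held 87 genes, of which 86 were tested and 0 called, with 12 at an unadjusted p under 0.05 (14.1% of all genes tested were) and a median log2 fold change of -0.04, against 0.0027 for all genes tested. Among these 12 was Cdk9, the kinase that Rn7sk holds, with control counts of 1203 and 1345, against vKO counts of 1894 and 1613 (log2 fold change 0.44, SE 0.14, adjusted p 0.194). It did not pass over all genes tested, and a share of 12 in 86 is near that over all genes. Medians were 0.08 for box C/D proteins, 0.11 for box H/ACA proteins, -0.06 for 11 assembly factors and -0.06 for 9 Cajal body and cap genes. They were -0.0024 for 22 genes of spliceosomal RNA transcription, -0.0035 for 7 genes of the 7SK particle, -0.12 for the 4 telomerase genes and 0.04 for 17 tested noncoding host genes. All 8 signal recognition particle genes had values below 0, with a median of -0.19, and none had an unadjusted p under 0.05.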

How the data were processed

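Raw read counts per gene were deposited by the authors in 1 table, per the file headers, for 2 control and 2 Ythdf2-vKO testis libraries. HISAT2 2.1.0 and HTSeq 0.6.1p1 are named in the submitters' processing notes, with no settings. The build, the use of strand and the treatment of multiple matches are not given in the sources used here. The authors deposited a mean normalized count (a signal over the 4 libraries), log2 fold changes, their standard errors, a Wald statistic (score), a p-value and an adjusted p-value, with DESeq2 column names per the file headers. These were used only where the authors' deposited table is named. Columns were read by number because a tab inside the first header name shifts the header.

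Counts were tested with edgeR 4.0.16 (limma 3.58.1, R 4.3.3): TMM, filterByExpr, robust legacy quasi-likelihood fit of genotype, prior count 0.125, two-sided F test, Benjamini-Hochberg adjustment over 21132 genes, calls at an adjusted p under 0.05. The fit was tested on simulated data. The SE is the absolute log2 fold change over the square root of F. Counts of 15 members fell to the filter, so a fit with no filter over all 25265 genes gives their values. Ratios are of group sums over TMM-scaled depth with exact (Clopper-Pearson) 95% intervals. These cover counting error only, not the spread between replicates. They treat each count as independent, and reads carry no molecular identifiers. Replicates differed by more than sampling noise (chi-square per degree of freedom 19.4 in control, 7.84 in vKO). Alternatives were DESeq2 1.42.0, scalings, filters, a GC offset, a replicate block and leaving out libraries. Positions and sequences are from GENCODE M21 by identifier (25261 of 25265 found), and the authors' build may differ. The host gene of 1 member is not reported here. Copies were searched with BLAST 2.17.0.

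Named genes are Ythdf2, the members, their hosts, the 8 core proteins and any called gene of the lists; Cdk9, Gm17300 and the genes of the closing section were chosen after their values were seen. The rule's part on likeness of pattern was left out, as 4 libraries are too few for a correlation, and summed levels were given no test. The members and lists were chosen with earlier results of these data known.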

Additional observations from a re-analysis of the deposited data

How the results depend on the processing

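No member was called under any of the settings run, including an adjusted p under 0.01 and leaving out each library (0 calls each). Over all genes, 59 were higher and 24 lower in vKO in the reported fit. The counts were 181 and 37 with library totals alone, 137 and 80 with a DESeq2 Wald test, 8 and 2 at an adjusted p under 0.01, 50 and 15 without robust estimation, and 81 and 61 with the GC offset. Leaving out 1 library gave 16 to 1075 higher and 2 to 537 lower (1075 and 465 without control replicate 1, 574 and 537 without control replicate 2, 16 and 2 without vKO replicate 1, 17 and 7 without vKO replicate 2). These fits leave 1 library in a group, which is assumed to vary like the other group. The newer quasi-likelihood estimate of edgeR, added after seeing the data, gave 81 and 30.

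Both groups use replicate numbers 1 and 2, whose meaning the labels leave out. Deviations of same-numbered libraries from their group means correlated at 0.0618 over the genes tested. This value cannot show whether the numbers mark pairs. As the labels state no pairing, the numbers were not read as pairs in the reported fit. The replicate block gave 627 higher and 390 lower genes, and adding the GC offset to that block gave 626 and 706. No member was called in either. In the second, Ythdf2 (0.40), 2410002F23Rik (0.43) and Rcc1 (-0.36) passed the threshold.

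The median log2 fold change of the 17 was 0.04 with the GC offset and ran from -0.20 to 0.26 over the fits that leave out a library. The log2 ratio of their summed CPM was 0.19 without Rn7sk and 0.17 without Rn7sk and Terc, and ran from -0.058 to 0.17 over the fits that leave out a library. Of 225 alternative values for single members, 6 changed sign, all in fits that left out a library, and 0 passed. Without control replicate 1 Snord49b was 1.36 and Snora20 -0.04. Without control replicate 2 Snora17 was 1.34. Without vKO replicate 1 Snord49b was 0.33, and without vKO replicate 2 Snora20 was -0.28 and Snord88c -0.30.

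Over those fits the ranges were -1.53 to 1.36 for Snord49b, -0.28 to 1.5 for Snora20, -0.95 to 1.34 for Snora17 and -0.30 to 1.62 for Snord88c. Other genes near 0 changed sign too. With the GC offset these were 2410006H16Rik (-0.034), Gar1 (-0.13) and Gm17300 (0.014), with both GC offset and replicate block 2410006H16Rik (-0.040), Gar1 (-0.13) and Gm17300 (0.0011), and with library totals Gm17300 (0.032). Leaving out a library gave -0.12 to 0.20 for 2410006H16Rik, -0.54 to 0.084 for Snhg10, -0.24 to 0.15 for Gm17300, -0.29 to 0.42 for Nop56, -0.11 to 0.43 for Snu13, -0.086 to 0.65 for Dkc1, -0.14 to 0.20 for Gar1 and -0.023 to 0.42 for Nhp2. The cause of these shifts was not tested.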

Other observations

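Split by position, a division made after the values were seen, the summed levels of the 12 members inside another gene and of the 5 outside had ratios on different sides of 1, while members of both sets lay on both sides of 0. Inside, 8 log2 fold changes were above 0 and 4 below, and outside 1 was above and 4 below. Those inside summed to control levels of 2.82 and 3.53 CPM, against vKO levels of 3.81 and 4.11 CPM, a ratio of 1.23 (exact 95% interval 1.001 to 1.51). The intervals given here cover counting error only, not the spread between replicates. Those outside summed to control levels of 2.82 and 3.07 CPM, against vKO levels of 2.50 and 2.26 CPM, a ratio of 0.804 (0.632 to 1.02). Without each library in turn the first ratio ran from 1.12 (0.884 to 1.43, without control replicate 1) to 1.4 and the second from 0.764 to 0.845. Without Snora73b the first was 1.27 (0.967 to 1.69), and without Rn7sk the second was 0.794 (0.522 to 1.2). The difference between the sets was not tested.

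Small RNA genes without a family name in their symbol were also in the table. It held 38 of 1507 genes annotated as snoRNA (2.52%), 25 of 1385 annotated as snRNA (1.81%) and 8 of 51 annotated as scaRNA (15.7%), of which 13, 0 and 2 are members. Over the type, snRNA genes had control counts of 154 and 208, against vKO counts of 183 and 200. The most counted of the snRNA genes were Gm23027 (29 and 43 in control, 25 and 31 in vKO) and Gm25047 (14 and 41 in control, 23 and 26 in vKO). The snoRNA gene Gm25588 had control counts of 36 and 17, against vKO counts of 37 and 10. Its counts were thus higher in replicate 1 of both groups, while those of Gm23027 and Gm25047 were higher in replicate 2 of both. Snhg9, a noncoding host gene, was too low to be tested. It had control counts of 8 and 1, against vKO counts of 10 and 0, in the order of Gm25588. These genes were picked after their values were seen, and the share of all genes with either order was not counted.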
